A study of Mus musculus with 8 samples.

Results

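Neurotrophin receptors, their ligands and genes used to follow the innervation of brown adipose tissue (BAT) were read across 8 mouse BAT libraries. The set holds 9 of the 49452 genes in the table: the receptors Ntrk3, Ntrk2 and Ngfr, the ligands Ntf3 and Bdnf, the neuregulins Nrg1 and Nrg4, and S100b and Th. They were taken by symbol, and all 9 symbols were found. Ntrk3 was chosen for its low level in the cold, so its values at 22 °C and 4 °C are given as a description without a test. BAT came from male C57BL/6 mice in 4 groups of 2. The 22 °C group (replicates 4 and 7) was housed at 22 °C, and the 4 °C group (replicates 2 and 11) was kept at 4 °C for 24 h. According to the methods these mice were 10 to 12 weeks old, and the last 4 h of the cold exposure were without food. Whether the 22 °C mice were fasted is not clear from the methods. The CD group (replicates 6 and 8) received a control diet, called normal chow in the labels, and the HFD group (replicates 2 and 6) a high-fat diet, for 28 weeks up to an age of 32 weeks. No mouse carried a transgene or an engineered allele according to the sources used here. Nothing in the labels says more of the 2 samples of a group than that they are separate samples, so p-values measure the spread between these samples only.

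Neurotrophins are secreted growth factors that keep neurons alive and guide their axons to a tissue. Ntf3 acts chiefly through the receptor tyrosine kinase TrkC (Ntrk3), and Bdnf and neurotrophin-4 through TrkB (Ntrk2), while p75 (Ngfr) binds all of them. BAT is densely innervated by sympathetic axons that release noradrenaline, the signal that switches on thermogenesis. The cell bodies of these neurons lie in ganglia outside the fat, so most of their mRNA is not in the dissected tissue, whereas the Schwann cells that wrap the axons, the vessels and the adipocytes are.

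Levels are FPKM, fragments scaled to transcript length and to the mapped fragments of the library, and can therefore be compared between genes per length. Over the 8 libraries Nrg4 had the highest mean at 46.7 FPKM, followed by S100b at 37.3, Ntrk2 at 12.6 and Ntrk3 at 11.3 FPKM. Ntf3 had a mean of 0.721 and Ngfr of 0.221 FPKM. Bdnf, Th and Nrg1 were below these, at means of 0.0667, 0.0624 and 0.0344 FPKM. The order of the group means was not the same in each group. S100b was above Nrg4 in CD (45.7 against 37.6 FPKM) and in HFD (73.4 against 48.6 FPKM). At 22 °C S100b, at 7.81 FPKM, was below Ntrk3 (22.7) and Ntrk2 (11.4). At 4 °C Th, at 0.203 FPKM, was above Ngfr, at 0.0972 FPKM. Low values went up in steps of 1 fragment, a step that for 2000 bases of transcript was 0.00438 to 0.00601 FPKM. Fragment numbers derived from this step are approximate and cover counting error only. Replicates correlated at Pearson r of 0.969 to 0.982 over genes, and 10228 to 11436 genes per library reached 1 FPKM. In the 22 °C libraries and CD replicate 6 no gene of the X chromosome was above 0, whereas the others listed 779 to 1175 such genes, so an exact 0 can be a missing estimate and is called listed at 0. All 9 members are autosomal. In each group 1 library had over 100 FPKM of the satellite-like gene Gm10800 and 1 had less. The rich libraries were replicate 4 of 22 °C, replicate 11 of 4 °C, replicate 8 of CD and replicate 2 of HFD.

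**Figure D1:**
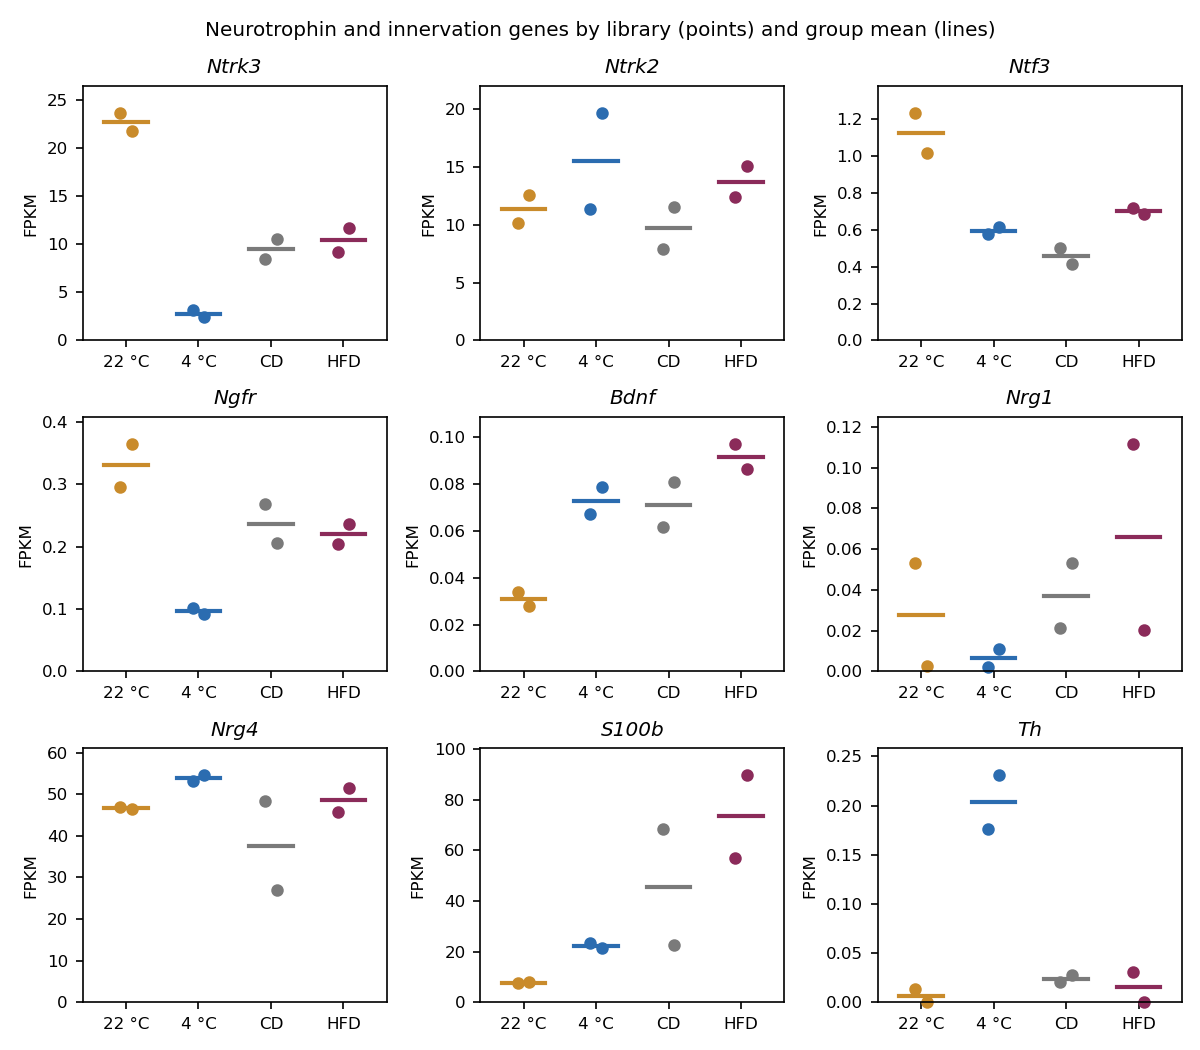
FPKM of the 9 members (one panel each, linear axis from 0) in the 8 libraries. Points are libraries and horizontal lines are group means of 2. Ntrk3 and Ngfr lie lowest at 4 °C, Th lies highest at 4 °C, and S100b is lowest at 22 °C.

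Differences were computed on log2(FPKM + 1) with limma, which understates the change of genes with low FPKM. Past threshold means a Benjamini-Hochberg adjusted p under 0.05 and a log2 fold change of 1 or more, up or down. Tests covered autosomal genes that reached 0.1 FPKM in 2 or more of the 4 libraries compared. Of the 8 members besides Ntrk3, 6 were tested in the cold and 1, S100b, was past threshold, against 1.44% of all genes tested (252 of 17477). An unadjusted p under 0.05 was reached by 4 of these 6, against 24.5% of all genes tested (4280 of 17477), and of the 4, Th and Ngfr entered the test through the group in which they were higher, as described with their values, so this count supports nothing about the members. Among the tested members, both 4 °C libraries exceeded both 22 °C libraries for 3 (Nrg4, S100b and Th, the last fixed in direction by its entry), against 37.9% of all genes tested. They were below them for 2 (Ntf3 and Ngfr), against 20.6%. Ngfr entered through the 22 °C libraries, so neither of these counts supports anything about the members. With HFD, 6 of the 9 members were tested and 0 were past threshold with limma, and 0 had an unadjusted p under 0.05, against 14.4% of all genes. The share of all genes past threshold there was 0.0684% (12 of 17543). Both HFD libraries were above both CD libraries for 2 of the 6 tested members, against 39.9% of all genes, and below them for 0, against 5.8%. Leaving out 1 library at a time moved the 252 genes called in the cold to between 1 (without 4 °C replicate 2) and 767 (without 22 °C replicate 7), and the 12 called with HFD to between 98 and 726. With 2 against 2 samples an exact two-sided permutation test of a single gene cannot go below p = 0.333, so the calls rest on the spread pooled across genes by limma.

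Ntrk3 encodes TrkC, the receptor of neurotrophin-3, which exists as a kinase-bearing form and as truncated forms without the kinase. The gene (ENSMUSG00000059146) lies on the minus strand at chr7:78175959-78738012 of GRCm38 and has 20 annotated transcripts, 6 of them coding. The value in the table sums over them, so it does not separate full-length from truncated receptor. Ntrk3 had 23.6 and 21.8 FPKM at 22 °C, against 3.16 and 2.38 FPKM at 4 °C. The CD libraries held 8.49 and 10.5 FPKM and the HFD libraries 9.17 and 11.7 FPKM. The 22 °C libraries were thus the highest and the 4 °C libraries the lowest of the 8, with the CD and HFD libraries between and overlapping each other. The mean at 4 °C was 8.19-fold below that at 22 °C, and the log2 fold change was -2.66 (SE 0.20). Within the satellite-rich libraries the log2 fold change was -2.86 and within the others -2.45. Over 15 alternative settings it ranged from -3.05 to -2.51. Ntrk3 was chosen on this contrast, so these values describe the difference and do not support it. Other genes with values of this size in the cold comparison were the lactate receptor Hcar1 at -3.01 and Impdh1 at -2.65, and n-R5s202 was listed at 0 in both 4 °C libraries. The 22 °C and CD mice, the controls of the 2 experiments, differed in age, so the distance between 22.7 ± 1.29 and 9.49 ± 1.41 FPKM (SD, n = 2 each) cannot be told apart from that difference.

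With HFD, a comparison that played no part in choosing the gene, Ntrk3 did not pass the test. The log2 fold change was 0.12 (SE 0.35, limma adjusted p = 0.903), and its sign turned negative under 5 of 15 alternatives. The difference between the HFD and the cold effect was 2.78 (SE 0.33), a value that contains the cold contrast and is given without a test. Ntrk3 spans 4 other annotated genes, 0 of which share exonic bases with it. Among them, Gm9885 on the opposite strand was at 0.917 and 1.01 FPKM at 22 °C, at 0.0870 and 0.102 at 4 °C, at 1.08 and 0.781 in CD and at 0.440 and 0.659 FPKM in HFD. It was thus also lowest in the cold libraries, and how strand was used in counting is not given in the sources used here.

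**Figure D2:**
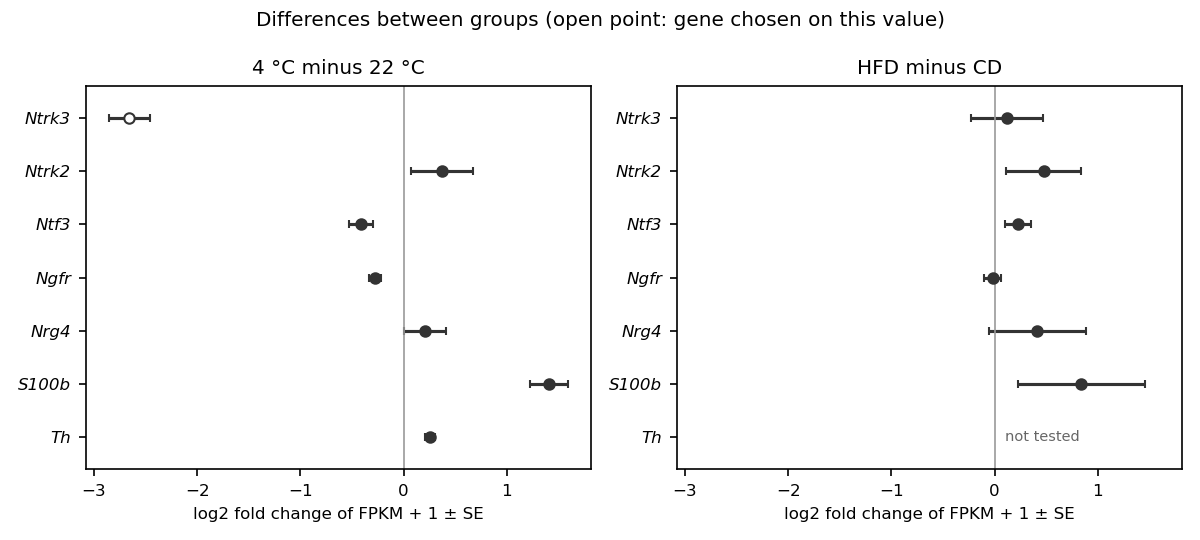
Log2 fold changes of FPKM + 1 with limma's standard error (SE) for the members that entered the fits, 4 °C minus 22 °C on the left and HFD minus CD on the right. In the cold S100b lies at 1.41 and Ngfr and Ntf3 lie below 0, while all HFD values lie within -0.02 and 0.84. Ntrk3 in the cold (open point) was chosen on this value.

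Ntrk2 encodes TrkB, the receptor for Bdnf and neurotrophin-4, which like TrkC has truncated forms (10 annotated transcripts, 7 of them coding, on the plus strand at chr13:58806596-59133970). It was at 10.2 and 12.6 FPKM at 22 °C and at 11.4 and 19.6 FPKM at 4 °C. The CD libraries had 7.89 and 11.5 FPKM and the HFD libraries 12.4 and 15.0 FPKM. The cold groups overlapped, whereas both HFD libraries were above both CD libraries. The cold log2 fold change was 0.37 (SE 0.30, limma adjusted p = 0.486) and that with HFD 0.47 (SE 0.37, adjusted p = 0.606), so neither passed. Without 4 °C replicate 11 the cold value was 0.0058 and without 4 °C replicate 2 it was 0.74. As a description, Ntrk3 exceeded Ntrk2 in FPKM in both 22 °C libraries and in CD replicate 6, and Ntrk2 exceeded Ntrk3 in the other 5.

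Ngfr encodes p75, the low-affinity neurotrophin receptor found on Schwann cells, neurons and several mesenchymal cells. It has 1 annotated transcript (minus strand, chr11:95568818-95587735). Its levels were 0.296 and 0.364 FPKM at 22 °C, 0.102 and 0.0926 FPKM at 4 °C, 0.268 and 0.206 FPKM in CD and 0.204 and 0.237 FPKM in HFD. Both 4 °C libraries were below the other 6, and the CD and HFD libraries overlapped. These levels corresponded to about 121 and 143 fragments at 22 °C and about 30.2 and 32.1 fragments at 4 °C. The ratio of the means was 3.40-fold in favour of 22 °C. Only 1 of the 4 °C libraries reached 0.1 FPKM, so the gene entered the cold test through the 22 °C libraries. The log2 fold change was -0.28 (SE 0.06), and the limma adjusted p of 0.0717 missed the threshold. With a pseudocount of 0.1 in place of 1 the log2 fold change was -1.12 with an adjusted p of 0.0683. With HFD it was -0.02 (SE 0.08, adjusted p = 0.938). The 2 receptors with their lowest values in the cold, Ntrk3 and Ngfr, correlated at r = 0.94 over the 8 libraries, given as a description. Both are set side by side for being lowest in the cold, so this r does not support a link between them. With the other members the r of Ntrk3 ran from -0.90 (Th) to 0.65 (Ntf3).

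The ligand Ntf3, neurotrophin-3, was at 1.23 and 1.02 FPKM at 22 °C and at 0.575 and 0.615 FPKM at 4 °C. In CD it was at 0.503 and 0.415 FPKM and in HFD at 0.721 and 0.688 FPKM. The 22 °C libraries were the highest of the 8 and the CD libraries the lowest. Both 4 °C libraries were below both 22 °C libraries, and both HFD libraries were above both CD libraries. The cold log2 fold change was -0.41 (SE 0.12, limma adjusted p = 0.116) and that with HFD 0.22 (SE 0.13, adjusted p = 0.484). The difference between the 2 effects, 0.64 (SE 0.16), had an adjusted p of 0.0910 and did not pass either.

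Bdnf, brain-derived neurotrophic factor, stayed under 0.1 FPKM in all 8 libraries and was not tested. It was listed at 0.0340 and 0.0279 FPKM at 22 °C, 0.0672 and 0.0786 FPKM at 4 °C, 0.0617 and 0.0809 FPKM in CD and 0.0971 and 0.0863 FPKM in HFD. The 22 °C libraries were the lowest and the HFD libraries the highest of the 8. The values corresponded to about 13.7 to 40.3 fragments per library. Ntf5, neurotrophin-4, the other ligand of TrkB, was at 0 to 0.0454 FPKM.

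Across the wider neurotrophin list (24 genes besides the members, mainly sortilins, adaptors and signalling enzymes), 19 genes were tested in the cold and 0 were past threshold with limma, while 4 had an unadjusted p under 0.05, a count near the share of 24.5% over all genes. Both cold libraries were higher for 7 of them and lower for 4, against 37.9% and 20.6% of all genes. The list's median log2 fold change was 0.17, against 0.07 over all genes. The largest difference was in Sorcs2, a sortilin-family partner of p75, at 4.74 ± 1.89 FPKM at 22 °C and 1.03 ± 0.537 FPKM at 4 °C (SD, n = 2 each, log2 fold change -1.49, SE 0.31, adjusted p = 0.0717). Gab2, a docking protein, was at 2.24 ± 0.0636 and 5.46 ± 1.36 FPKM (0.98, SE 0.21, adjusted p = 0.0767), and the phosphatase Ptpn11 at 10.5 ± 0.368 and 20.7 ± 1.38 FPKM (0.92, SE 0.19, adjusted p = 0.0669). Sortilin, Sort1, among the most abundant of the list, was at 23.7 ± 1.54 and 21.1 ± 2.95 FPKM. With HFD, 20 were tested, 0 were past threshold, against 0.0684% of all genes, and 2 had an unadjusted p under 0.05, against 14.4%. Sorcs2 entered that test through the CD libraries. Shc4, named after its values were seen, entered it through the HFD libraries (0.0575 and 0.0884 FPKM in CD, 0.164 and 0.222 FPKM in HFD). Sorcs2 was at 0.797 ± 0.202 FPKM in CD and 0.139 ± 0.0821 FPKM in HFD (-0.65, SE 0.13, adjusted p = 0.144), and the median of the list was 0.31 against 0.18 over all genes.

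Nrg4, a neuregulin that brown adipocytes secrete and that signals through ErbB4, was at 46.8 and 46.5 FPKM at 22 °C and at 53.2 and 54.5 FPKM at 4 °C. It was at 48.3 and 27.0 FPKM in CD and at 45.7 and 51.5 FPKM in HFD. Both cold libraries were above both 22 °C libraries and were the highest of the 8, and CD replicate 8 was the lowest. The cold log2 fold change was 0.20 (SE 0.20, limma adjusted p = 0.582), and it turned negative under each of 3 scalings. The HFD value was 0.41 (SE 0.47, adjusted p = 0.732), and it was 0.0054 without CD replicate 8 and 0.82 without CD replicate 6. The gene (minus strand, chr9:55220222-55326844) shares 6.06% of its exonic bases with Fbxo22 on the opposite strand.

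Nrg1, the neuregulin that Schwann cells receive from axons, did not reach 0.1 FPKM except in HFD replicate 2 and was not tested. The values were 0.0530 and 0.00277 FPKM at 22 °C, 0.00212 and 0.0109 FPKM at 4 °C, 0.0214 and 0.0530 FPKM in CD and 0.111 and 0.0204 FPKM in HFD, from about 1.01 to 59.3 fragments. The groups overlapped in both comparisons, and in each group the library rich in the satellite-like gene was the higher of the pair.

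Of 17 other genes of the neuregulin and ErbB list, 12 were tested in the cold and 0 were past threshold with limma, with 4 at an unadjusted p under 0.05, against 24.5% of all genes. Both cold libraries were higher for 6 and lower for 2, against 37.9% and 20.6%. The list's median was 0.23, against 0.07 over all genes. Erbb4, the receptor of Nrg4, was at 1.42 and 1.17 FPKM at 22 °C and at 0.294 and 0.322 FPKM at 4 °C, with 1.27 and 1.34 FPKM in CD and 1.36 and 1.03 FPKM in HFD. The 4 °C libraries were below the other 6, as for Ngfr. On the log2 scale it differed by -0.81 (SE 0.11, adjusted p = 0.0442), which is under the size required of a call. Errfi1, a feedback inhibitor of ErbB receptors, was at 6.25 ± 2.32 FPKM at 22 °C and 23.1 ± 2.21 FPKM at 4 °C (1.77, SE 0.28, adjusted p = 0.0517). Hbegf, an EGF-receptor ligand, was at 0.208 ± 0.0480 and 1.91 ± 1.74 FPKM (1.13, SE 0.41, adjusted p = 0.180). With HFD, 13 were tested, 0 were past threshold, 2 had an unadjusted p under 0.05, against 14.4% of all genes, and the median was 0.14, against 0.18. The largest difference was in the EGF receptor, Egfr, at 0.967 ± 0.142 FPKM in CD and 3.19 ± 0.342 FPKM in HFD (1.09, SE 0.25, adjusted p = 0.157).

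S100b, a calcium-binding protein of Schwann cells and astrocytes that brown adipocytes also make and release, was the member past threshold in the cold. The gene (plus strand, chr10:76253853-76261159) has 1 annotated transcript and shares 0 exonic bases with Dip2a, which it overlaps on the opposite strand. The 300 bases around its RefSeq start (GRCm38.p6, chr10:76253586-76253885, plus strand, 250 before and 50 after the start) are shown because this gene carried the call. They are given with those of Ngfr (chr11:95587649-95587948, minus strand), the other receptor lowest in the cold, and of Th (chr7:142899946-142900245, minus strand), the member above 0.1 FPKM only there. RefSeq starts were at hand for 7 of the 9 members. Capitals mark the cAMP response element TGACGTCA, which reads the same on both strands, and the GC box GGGCGG, read as CCGCCC on the other strand.
S100b: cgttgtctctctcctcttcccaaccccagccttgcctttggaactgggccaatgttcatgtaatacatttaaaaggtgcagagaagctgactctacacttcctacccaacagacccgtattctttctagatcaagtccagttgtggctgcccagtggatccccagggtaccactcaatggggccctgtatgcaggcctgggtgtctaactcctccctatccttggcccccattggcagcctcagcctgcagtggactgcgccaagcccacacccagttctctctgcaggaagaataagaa
Ngfr: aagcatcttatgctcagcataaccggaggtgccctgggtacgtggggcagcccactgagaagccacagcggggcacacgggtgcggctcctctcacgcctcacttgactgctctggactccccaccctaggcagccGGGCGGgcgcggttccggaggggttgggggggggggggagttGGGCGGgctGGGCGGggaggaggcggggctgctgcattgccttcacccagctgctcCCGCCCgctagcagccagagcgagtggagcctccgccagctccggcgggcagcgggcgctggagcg
Th: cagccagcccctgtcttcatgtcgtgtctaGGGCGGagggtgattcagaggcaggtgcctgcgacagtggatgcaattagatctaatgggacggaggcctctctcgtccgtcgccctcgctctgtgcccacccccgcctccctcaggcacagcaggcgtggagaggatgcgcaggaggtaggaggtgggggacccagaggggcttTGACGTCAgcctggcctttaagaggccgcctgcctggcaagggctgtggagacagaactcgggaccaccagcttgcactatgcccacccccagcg
The Th window holds the cAMP response element 45 to 38 bases before the start, a motif present in 1.79% of 32851 promoter windows of the same length, and 1 GC box. Th has 6 annotated transcripts, 3 of them coding, over chr7:142892752-142931128, which reaches upstream of this window. The FPKM of Th sums over them and does not tell from which start its fragments came. The Ngfr window holds 4 GC boxes, and the S100b window neither motif. A GC box occurs in 35.7% of all windows. These matches describe letters and not bound factors.

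S100b was at 7.66 and 7.95 FPKM at 22 °C and at 23.3 and 21.4 FPKM at 4 °C. It was at 68.6 and 22.7 FPKM in CD and at 57.2 and 89.7 FPKM in HFD. The 22 °C libraries were the lowest of the 8, the 4 °C libraries lay close together above them, and CD and HFD overlapped over a wide range. The 4 °C mean was 2.87-fold that of 22 °C, with a log2 fold change of 1.41 (SE 0.18, limma adjusted p = 0.0442). The call was lost without 22 °C replicate 4 (adjusted p = 0.0922) and without 4 °C replicate 2 (0.119), and under 5 other alternatives, where the adjusted p ran from 0.0654 to 0.256. The log2 fold change stayed between 0.997 and 1.51 over the 15 alternatives. With HFD it was 0.84 (SE 0.61, adjusted p = 0.585). Library identifiers in the labels begin alike for CD replicate 8 and the HFD libraries and differently for CD replicate 6. That of CD replicate 6 begins like those of the 22 °C and 4 °C libraries. This split lies in every comparison that uses the CD libraries, for all genes, and its part was not tested. Without CD replicate 6 the HFD value of S100b was 1.62, and without CD replicate 8 it was 0.06. The difference between the 2 effects was -0.57 (SE 0.69, adjusted p = 0.733).

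Th, tyrosine hydroxylase, carries out the rate-limiting step of catecholamine synthesis and is the usual marker of sympathetic axons at the protein level. It was at 0.176 and 0.231 FPKM at 4 °C, against 0.0135 FPKM in 22 °C replicate 4 and a listed 0 in 22 °C replicate 7. It was at 0.0202 and 0.0283 FPKM in CD and at 0.0308 FPKM and a listed 0 in HFD replicates 2 and 6. The 4 °C libraries were above the other 6. They held about 28.4 and 43.6 fragments, and no other library held more than about 5.59. The gene entered the cold test only through the 4 °C libraries, so that a difference was required for it to be tested at all. The log2 fold change was 0.26 (SE 0.05, limma adjusted p = 0.0627). With a pseudocount of 0.1 it was 1.503 and past threshold (adjusted p = 0.0487), and with median centring, which shifts every gene by a constant on the log scale, it was about 0 (-0.0008). Th was not tested with HFD. The difference between the effects was -0.27 (SE 0.06, adjusted p = 0.0864). For that comparison 6 of the 8 members besides Ntrk3 were tested with limma, 0 were past threshold and 3 (Ntf3, Ngfr and Th) had an unadjusted p under 0.05. Here too Th entered the test only through the 4 °C libraries, so its p supports no count. Of all genes tested, 1.04% were past threshold and 18.4% had an unadjusted p under 0.05.

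**Figure D3:**
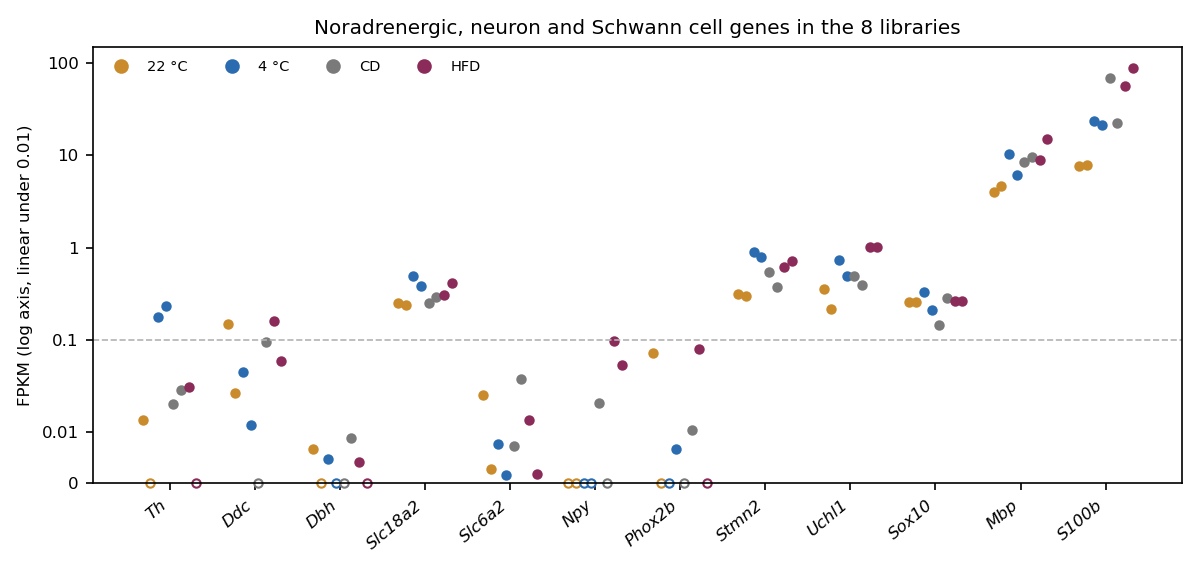
FPKM of noradrenergic, neuron and Schwann cell genes in the 8 libraries (points, coloured by group) on a log axis that is linear under 0.01. Open points are listed at 0 and the dashed line marks 0.1 FPKM, the filter of the test. Th is above that line only at 4 °C, while Dbh, Slc6a2 and Npy stay under it in every library.

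Among other genes of the noradrenergic axon, some stayed under 0.1 FPKM in all 8 libraries. Dbh, which makes noradrenaline, reached at most 0.00884 FPKM, the noradrenaline transporter Slc6a2 at most 0.0379 FPKM and the co-transmitter Npy at most 0.0974 FPKM. These 3 were named after their values had been seen. Ddc, the enzyme after Th, ran from 0 to 0.158 FPKM with overlapping groups, and the vesicular transporter Slc18a2 was at 0.250 and 0.236 FPKM at 22 °C and 0.492 and 0.387 FPKM at 4 °C. Of 12 genes of catecholamine synthesis and handling, 7 were tested in the cold, 0 were past threshold with limma and 3 had an unadjusted p under 0.05, against 24.5% of all genes. Both cold libraries were higher for 2 and lower for 2, against 37.9% and 20.6%. The list's median was 0.21, against 0.07 over all genes. Slc22a3, a carrier that clears catecholamines outside neurons, was at 5.73 ± 1.41 FPKM at 22 °C and 1.43 ± 0.611 FPKM at 4 °C (-1.48, SE 0.26, adjusted p = 0.0587). With HFD 7 were tested, 0 were past threshold and 1 had an unadjusted p under 0.05, against 14.4%. The median was 0.10, against 0.18 over all genes, and Gch1, which makes the cofactor of Th, was at 0.450 ± 0.127 FPKM in CD and 1.07 ± 0.314 FPKM in HFD (0.50, SE 0.17, adjusted p = 0.256).

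Of 22 neuron and axon markers matched in the table, 17 were under 0.1 FPKM in all 8 libraries and 0 were listed at 0 throughout. Their summed level was 1.97 and 1.30 FPKM at 22 °C, 2.33 and 2.24 FPKM at 4 °C, 1.66 and 1.69 FPKM in CD and 2.80 and 2.63 FPKM in HFD. Of the 4 tested in each comparison, 0 were past threshold with limma, and 2 in the cold and 1 with HFD had an unadjusted p under 0.05, against 24.5% and 14.4% of all genes. The list medians were 0.18 and 0.17, against 0.07 and 0.18 over all genes. Trpv1 was at 0.179 and 0.0693 FPKM in CD and at 0.215 and 0.267 FPKM in HFD. It entered the HFD test through the HFD libraries, so the HFD median does not support a change of the list. Stmn2, a microtubule regulator of growing axons, was at 0.306 ± 0.00750 FPKM at 22 °C and 0.841 ± 0.0774 FPKM at 4 °C (0.49, SE 0.09, adjusted p = 0.0584). Uchl1, a neuronal ubiquitin hydrolase, was at 0.440 ± 0.0656 FPKM in CD and 1.03 ± 0.00283 FPKM in HFD (0.49, SE 0.15, adjusted p = 0.210).

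Schwann cell markers covered a wide range of levels. Of the 15 reported here 8 were under 1 FPKM in all 8 libraries, among them Sox10, the factor that defines the lineage, at 0.145 to 0.327 FPKM, while Pmp22 was at 6.25 to 22.0 FPKM. In the cold Sox10 had a log2 fold change of 0.01. Of the 13 tested markers reported here, 8 were higher in both cold libraries, against 37.9% of all genes, and 5 had an unadjusted p under 0.05, against 24.5%. Of the 8, Mag and Ncmap had fewer than 2 of the 22 °C libraries at 0.1 FPKM and entered the test through the 4 °C libraries, so these counts do not support a change of the list. The marker lower in both, named after its values were seen, was Fabp7, a lipid-binding protein of immature Schwann cells, at 0.172 and 0.128 FPKM at 22 °C and 0.0687 and 0.0736 FPKM at 4 °C (-0.10, adjusted p = 0.266), and it entered the test through the 22 °C libraries. The median was 0.18, against 0.07 over all genes. Prx, periaxin, was at 0.181 and 0.153 FPKM at 22 °C and 1.79 and 0.826 FPKM at 4 °C (0.95, SE 0.21, limma adjusted p = 0.0763). Ncmap, a protein of myelinating Schwann cells, was at 0.156 and 0.0743 FPKM at 22 °C and 1.06 and 0.618 FPKM at 4 °C (0.71, SE 0.13, adjusted p = 0.0608). Prx was at 0.180 and 0.794 FPKM in CD and at 0.618 and 1.01 FPKM in HFD, and Ncmap at 0.0552 and 0.321 FPKM in CD and at 0.414 and 0.489 FPKM in HFD. For both genes the lowest 3 libraries were those in which no X-linked gene was above 0, whose part in the result was not tested. Mbp, a myelin protein, was at 4.34 ± 0.406 and 8.26 ± 3.09 FPKM in the cold comparison (0.75, SE 0.28, adjusted p = 0.181). With HFD 13 markers were tested, 0 were past threshold and 3 had an unadjusted p under 0.05, against 14.4% of all genes, and Mag, Ncmap and Fabp7 entered through the HFD libraries. The median was 0.30, against 0.18 over all genes, and the largest difference was in Pmp22, another myelin protein, at 8.61 ± 3.35 and 17.7 ± 6.10 FPKM (0.96, SE 0.43, adjusted p = 0.360).

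Among 28 genes of the GDNF family, axon guidance and adipocyte innervation factors, 22 were tested in the cold. Of these, 1 was past threshold, against 1.44% of all genes tested, and 11 had an unadjusted p under 0.05, against 24.5%. Bmp8b and Pspn, a GDNF-family ligand named after its values were seen (0.180 and 0.0521 FPKM at 22 °C, 0.314 and 0.360 FPKM at 4 °C), entered through the 4 °C libraries, so these counts do not support a change of the list. The median was 0.11, against 0.07 over all genes. The called gene was Bmp8b, a factor that mature brown adipocytes secrete and that acts on vessels and sympathetic axons. It was at 0.0826 and 0.0528 FPKM at 22 °C, 1.05 and 1.23 FPKM at 4 °C, 0.752 and 0.557 FPKM in CD and 0.180 and 0.229 FPKM in HFD. The 4 °C libraries were the highest and the 22 °C libraries the lowest of the 8. Both 22 °C values were under 0.1 FPKM, so the gene entered the cold test only through the 4 °C libraries and had to differ to be tested. The log2 fold change was 1.004 (SE 0.09, adjusted p = 0.0215), at the edge of the size required. It was below that size with median centring (0.75), quantile normalization (0.97) and rescaling to the autosomal sum (0.92) and without 22 °C replicate 7 (0.98), and the call was also lost without a filter (adjusted p = 0.171) and without the intensity trend (0.0743). Reads may be shared with the close paralog Bmp8a, so the value is uncertain to that degree. The difference between the effects of HFD and cold was -1.46 (adjusted p = 0.0105), and this call was lost without 22 °C replicate 4 or 7 and without HFD replicate 2 or 6, where the adjusted p was 0.0534 to 0.0723. Clstn3, the calsyntenin whose adipocyte form promotes S100b release, had the highest level of this list, at 92.3 and 120.2 FPKM at 22 °C and 176 and 183 FPKM at 4 °C (0.76, SE 0.26, adjusted p = 0.162). The receptor of class 3 semaphorins Nrp1 was at 44.8 ± 13.5 and 35.0 ± 0.827 FPKM (-0.32, adjusted p = 0.516). With HFD 24 were tested, 0 were past threshold and 6 had an unadjusted p under 0.05, against 14.4% of all genes, with a median of 0.23, against 0.18. Of those tested, Ret, Slit2, Robo1 and Sema3a had fewer than 2 CD libraries at 0.1 FPKM and entered through the HFD libraries. The largest difference was in Sema3f, a repellent guidance factor, at 1.02 ± 0.249 FPKM in CD and 2.69 ± 0.337 FPKM in HFD (0.87, SE 0.25, adjusted p = 0.195).

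**Figure D4:**
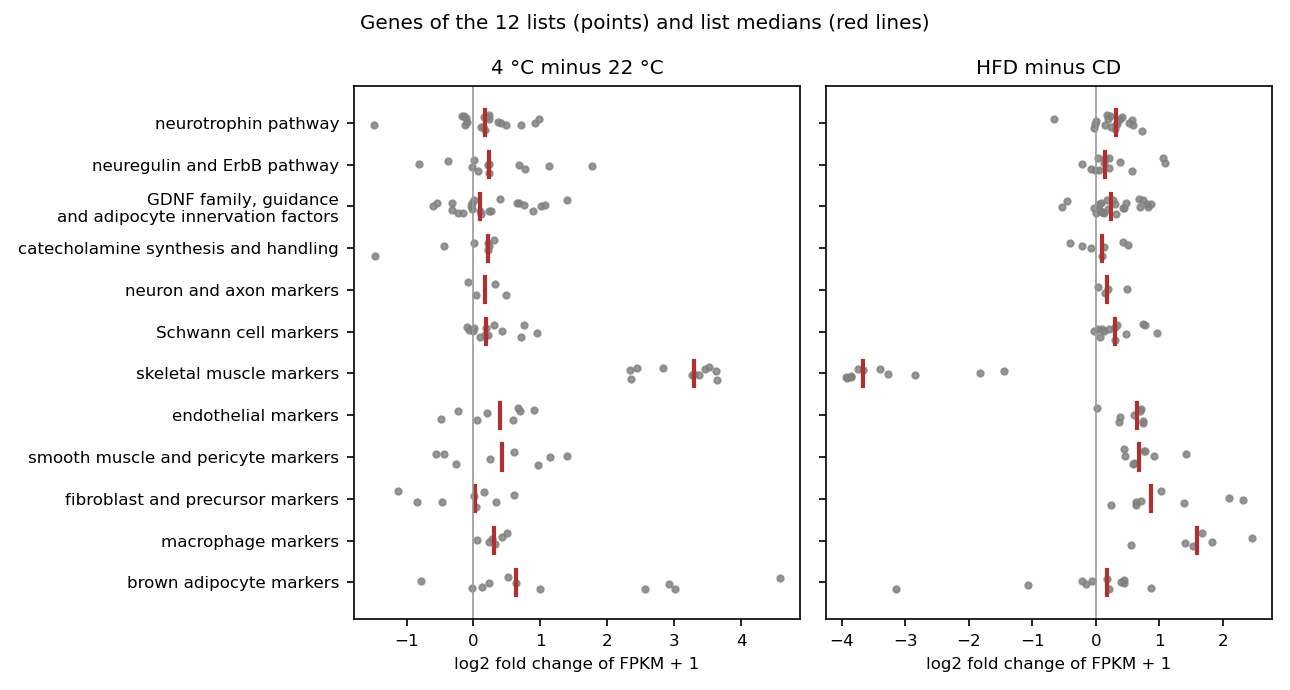
Log2 fold changes of FPKM + 1 for the tested genes of 12 lists (points) and list medians (red lines), 4 °C minus 22 °C on the left and HFD minus CD on the right, with separate horizontal scales. Medians of the nerve-related lists lie between 0.10 and 0.31 in both comparisons, while skeletal muscle markers lie at 3.30 in the cold and at -3.67 with HFD.

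Markers of other cell types in the tissue were compared in the same way. In bulk tissue, fewer cells of a type and less RNA per cell cannot be told apart. The sum of 11 skeletal muscle markers was 597 and 142 FPKM at 22 °C, 4405 and 2015 FPKM at 4 °C, 618 and 1569 FPKM in CD and 210 and 40.2 FPKM in HFD. All 11 were higher in both cold libraries, against 37.9% of all genes, and 10 of 11 were lower in both HFD libraries, against 5.8%. In either comparison 0 were past threshold with limma. An unadjusted p under 0.05 was reached by 11 in the cold and 10 with HFD, against 24.5% and 14.4% of all genes. For the difference of the effects 2 of the 11 markers were past threshold, against 1.04% of all genes tested. They were the actin crosslinker Actn3 (-6.53, limma adjusted p = 0.0469) and the myosin light chain Myl1 (-4.19, adjusted p = 0.0489). Both calls were lost without 22 °C replicate 4 or 7, 4 °C replicate 2, CD replicate 8 or either HFD replicate (adjusted p of 0.0740 to 0.153), and that of Myl1 also without 4 °C replicate 11 (0.0545). In the cold comparison S100b, Th and muscle RNA were all higher in the 4 °C libraries. With HFD muscle RNA was lower, and the CD and HFD libraries overlapped for both S100b and Th. The part of muscle in these results was not tested. Summed macrophage markers were 38.9 and 108 FPKM in CD and 187 and 239 FPKM in HFD (6 of 6 higher in both HFD libraries, against 39.9% of all genes, 5 at an unadjusted p under 0.05, against 14.4%, median 1.60) and 45.0 to 107 FPKM in the cold comparison (median 0.30, 0 at an unadjusted p under 0.05, against 24.5%). Fibroblast and precursor markers had medians of 0.03 in the cold and 0.86 with HFD, where 7 of 8 were higher in both libraries, against 39.9% of all genes. Endothelial markers had medians of 0.40 and 0.64, and smooth muscle and pericyte markers of 0.43 and 0.68, the cold value given before that with HFD. In these 4 lists 0 genes were past threshold. Their unadjusted p fell under 0.05 for 1 and 3 fibroblast, 5 and 1 endothelial and 5 and 5 smooth muscle markers, of 8 in each list, against 24.5% of all genes in the cold and 14.4% with HFD. The medians over all genes were 0.07 and 0.18.

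Defining markers of brown adipocytes were abundant. The uncoupling protein Ucp1 was at 1063 ± 515 FPKM at 22 °C and 5916 ± 772 FPKM at 4 °C (SD, n = 2 each, log2 fold change 2.56, SE 0.51, limma adjusted p = 0.0646). It was at 2910 ± 862 FPKM in CD and 2501 ± 672 FPKM in HFD (-0.21, SE 0.83, adjusted p = 0.930), so neither comparison passed. The sum of 11 brown adipocyte markers was at 6698 to 17240 FPKM. Of these 11 genes 3 were past threshold in the cold, against 1.44% of all genes, and 4 had an unadjusted p under 0.05, against 24.5%. With HFD 0 were past threshold with limma, against 0.0684%, and 1 had an unadjusted p under 0.05, against 14.4%. Those past threshold in the cold were Elovl3, a fatty acid elongase (4.58, adjusted p = 0.0467), Dio2, the enzyme that activates thyroid hormone (3.01, adjusted p = 0.0196), and the coactivator Ppargc1a (2.92, adjusted p = 0.0208). All 3 calls were lost without 4 °C replicate 2 (adjusted p of 0.137, 0.0838 and 0.0838), and that of Elovl3 also without 4 °C replicate 11 (0.0630). Without a filter each of these 3 calls was lost as well (limma adjusted p of 0.1765, 0.13 and 0.1531). The same held without the intensity trend (0.0905, 0.0593 and 0.0665). The list medians were 0.64 in the cold and 0.18 with HFD, against 0.07 and 0.18 over all genes.

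Genes with the most similar course to a member were sought among 10882 autosomal genes that averaged 1 FPKM or more, by Pearson r of log2(FPKM + 1) over the 8 libraries, as a description. For Ntrk3 these were Gm42847 (0.97), the centromeric histone Cenpa (0.97), the homeobox gene Six5 (0.96), the sodium/calcium exchanger Slc24a3 (0.96) and Wwox (0.95). Slc24a3 was at 15.8 and 17.8 FPKM at 22 °C, 8.14 and 9.08 FPKM at 4 °C, 12.5 and 13.5 FPKM in CD and 13.1 and 13.1 FPKM in HFD, the same order of groups as Ntrk3 over a smaller range. For Ntrk2 the closest was Safb (0.96), for Nrg4 Man2c1 (0.97) and for S100b the kinase Mark1 (0.98), followed by the complement regulator Cd59a (0.98) and the lysosomal lipase Lipa (0.96). Lipa was at 23.0 and 26.8 FPKM at 22 °C, 42.2 and 42.8 FPKM at 4 °C, 68.2 and 35.5 FPKM in CD and 49.2 and 64.0 FPKM in HFD, so that CD replicate 6 stood above CD replicate 8 as it did for S100b. The 8 points share their libraries, depth and tissue composition.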

How the data were processed

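RNA of 8 mouse BAT samples was depleted of ribosomal RNA, made into directional libraries and sequenced as paired ends of 100 bases. According to the methods and the submitters' processing notes, the authors mapped reads to GRCm38 with TopHat2 2.0.10 and estimated genes of Ensembl release 87 with Cufflinks (2.1.1 in the methods, 2.2.1 in the notes) within QuickNGS 1.2.7. The labels and the methods name different RNA isolation reagents. The deposited values are FPKM made by the authors, 1 per gene and library, with no pooling. The table holds no counts, so the planned count test gave way to limma 3.58.1 in R 4.3.3 (lmFit, eBayes with trend) on log2(FPKM + 1), over autosomal genes at 0.1 FPKM or more in at least 2 of the 4 libraries compared (2 of 8 for the difference of effects), with Benjamini-Hochberg adjustment over all of them. The difference is (HFD - CD) - (4 °C - 22 °C), over all 8 libraries in a single fit. X, Y and mitochondrial genes were left out because they are listed at 0 in 3 libraries.

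Depth is not stated. Fragments per library were approximated from the steps in genes with a single transcript and exon, where 97.6% to 98.5% of 1153 to 2968 low values were whole within 0.1 fragment. Floors and fragment numbers cover counting error only.

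Positions are those of GENCODE M21 (GRCm38), counted from base 1, and promoter windows are from RefSeq. Groups and replicate numbers came from the sample labels. The members and 12 lists (172 genes) were chosen with earlier results of these data known. Some list genes are not reported here, and list counts leave them out. The text names, per list and comparison, genes past threshold, otherwise up to 3 with the largest change, and up to 3 with the highest level. Up to 5 genes are named by likeness. Exceptions are said to be so or are defining markers. Ntf5, Ddc, Slc18a2, Mag, Ret, Slit2, Robo1 and Sema3a are further exceptions chosen after their values were seen. The test was tried on simulated data. Alternatives were the pseudocount, the filter, 3 scalings, the sex and mitochondrial chromosomes, library type (Gm10800 above or below 100 FPKM), the libraries in the fit, the trend and each replicate left out. For Bmp8b, Elovl3, Dio2, Ppargc1a, Actn3 and Myl1 they were added after seeing the data.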

Additional observations from a re-analysis of the deposited data

Results flagged for a closer look

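Of the genes named, 5 had a cold effect and an HFD effect that differed when the difference itself was tested with limma over all 8 libraries. Of all genes tested for the difference, 1.04% (196 of 18902) were past threshold. Genes were named partly for being past threshold, so the count of 5 supports nothing about the lists. Ntrk3 had a difference of 2.78 (SE 0.33), which is a description because the gene was chosen on the cold contrast, and no other member was past threshold. For Bmp8b the HFD effect minus the cold effect was -1.46 (adjusted p = 0.0105) on the log2(FPKM + 1) scale, for the elongase Elovl3 it was -7.73 (adjusted p = 0.0253) and for the coactivator Ppargc1a it was -2.52 (adjusted p = 0.0367). For the muscle genes Actn3 and Myl1 it was -6.53 (adjusted p = 0.0469) and -4.19 (adjusted p = 0.0489). These genes had the higher values at 4 °C than at 22 °C. Leaving out 22 °C replicate 4, HFD replicate 2 or HFD replicate 6 ended each of the 5 calls. Without 22 °C replicate 7 those of Bmp8b, Ppargc1a, Actn3 and Myl1 were lost, without 4 °C replicate 2 those of Elovl3, Ppargc1a, Actn3 and Myl1, without CD replicate 8 those of Ppargc1a, Actn3 and Myl1, and without 4 °C replicate 11 that of Myl1. Without a filter all 5 were lost (adjusted p of 0.0810, 0.0845, 0.110, 0.145 and 0.145), without the intensity trend Elovl3 (0.0626), Ppargc1a (0.0564), Actn3 (0.0964) and Myl1 (0.0826) were lost, and with rescaling to the autosomal sum Ppargc1a (0.0690) and Myl1 (0.0656) were lost. The calls of Actn3 and Myl1 were also lost with a pseudocount of 0.1 and with X, Y and mitochondrial genes kept, and that of Myl1 with quantile normalization. Over all alternatives the differences ranged from -4.19 to -1.38 for Bmp8b, from -8.58 to -6.87 for Elovl3, from -2.79 to -2.25 for Ppargc1a, from -7.47 to -5.59 for Actn3 and from -4.71 to -3.67 for Myl1.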

How the results depend on the processing

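The number of members past threshold in the cold, 1 as reported, was 2 with a pseudocount of 0.1, where Th joined S100b. Th entered that test only through the 4 °C libraries, so this count supports nothing about the members. Under that setting 474 of all genes were past threshold, against 252 as reported. The number of members was 0 without a filter, with rescaling to the autosomal sum and without the intensity trend. It was also 0 with all 8 libraries in a single fit, without or with library type. It was 0 to 1 with 1 replicate left out, and 0 without 22 °C replicate 4 or 4 °C replicate 2. The numbers with HFD and for the difference of effects stayed at 0 under every alternative run. Some values changed sign. In the cold, Ntrk2 was at -0.0291 with rescaling to the autosomal sum, Nrg4 at -0.0545 with median centring, -0.33 with quantile normalization and -0.24 with rescaling, and Th, 0.26 as reported, at -0.000757 with median centring, which moves every gene by the same -0.26. With HFD, Ntrk3 was at -0.23, -0.19 and -0.0227 under these 3 scalings and between -0.0387 and 0.28 with 1 replicate left out, Ntf3 was at -0.13 with median centring, and Ngfr ranged from -0.0555 to 0.0176 with 1 replicate left out, above 0 without CD replicate 6 and without HFD replicate 2. The differences of effects, with 1 replicate left out, ranged from -0.27 to 0.47 for Ntrk2, from -0.20 to 0.62 for Nrg4 and from -1.35 to 0.21 for S100b. The causes were not tested. Relative to the values as deposited, median centring, quantile normalization and rescaling shifted the median of all genes by -0.26, -0.10 and -0.19 in the cold and by -0.35, -0.18 and -0.08 with HFD.

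Counts over all genes moved more. The 252 genes in the cold became 474 (pseudocount 0.1), 0 (no filter), 529 (filter of 1 FPKM), 758 (median centring), 491 (quantile), 519 (rescaling), 920 (X, Y and mitochondrial genes kept), 859 (library type), 0 (no trend) and 813 (all libraries with library type). The share of higher calls was 84.5% as reported and 65.0%, 63.7% and 65.5% under the 3 scalings. The 12 genes with HFD, 75.0% of them higher, became 24 with the filter of 1 FPKM, 45 with median centring (51.1% higher), 745 with library type, 25 with all libraries, 289 with both and 0 without a filter, without the trend, with the sex and mitochondrial chromosomes kept, with quantile normalization and with rescaling. Pairing by replicate number was not possible because the groups compared share at most 1 such number. Library type, which differed within each group, was a covariate in some of the alternatives. Bdnf and Nrg1 gave no tested value, and Th none with HFD. These 3 genes rested on at most about 59.3 fragments in any library, which limits their precision. Filters that a member did not pass gave no value for it.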
